A study of Mus musculus with 11 samples.

Results

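The genes described here are the 47 rows, out of the 26061 genes of the deposited expression table, whose symbol begins with Psma, Psmb, Psmc, Psmd, Psme or Psmg, leaving out Psmb8 and Psmb9. The rule goes by symbol. The cells were BV2, an immortalised line of mouse microglia, the resident macrophages of the brain. They were transfected by lipofection with a non-targeting siRNA (siScr) or with siRNAs against Tet2 (siTet2), and 48 h later they were moved from medium with 10% serum to medium with 5% serum without further treatment or with lipopolysaccharide (LPS) at 1 µg/ml for 3 h. LPS is a bacterial wall component that activates macrophages through a Toll-like receptor. Directional libraries of polyadenylated RNA were sequenced from 4 groups: 3 untreated control siRNA libraries (siScr_Ctrl), 3 LPS-treated control siRNA libraries (siScr_LPS), 3 untreated Tet2 siRNA libraries (siTet2_Ctrl) and 2 LPS-treated Tet2 siRNA libraries (siTet2_LPS, replicates 2 and 3). All groups went through transfection, all cells are of 1 immortalised line, and no label states that replicates came from different cultures, so p-values measure only the spread between these libraries, which may be technical.

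The proteasome is the protease that degrades proteins tagged with ubiquitin. Its 20S core stacks rings of alpha subunits (Psma) around rings of beta subunits (Psmb) that hold the active sites, and its 19S cap unfolds substrates with a ring of ATPases (Psmc) and binds and deubiquitinates them with non-ATPase subunits (Psmd). Other caps (Psme) open the core without ubiquitin, and dedicated chaperones (Psmg for the core, a few Psmd proteins for the cap) assist assembly. In macrophages and microglia, interferon and bacterial products are known to bring in alternative beta subunits and the cap of Psme1 and Psme2, which favour peptides for class I antigen presentation.

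By role the rows held 7 alpha ring genes, 7 beta ring genes, 6 ATPases, 11 non-ATPase subunits of the cap, 3 cap assembly chaperones (Psmd5, Psmd9 and Psmd10), 5 activator rows, 4 core assembly chaperones and 3 other core subunits (Psma8, Psmb10 and Psmb11). The remaining row, Psmc3ip, shares only its prefix with the family: its product is a partner of recombinases in meiosis and no proteasome subunit. One activator row, Psme2b-ps, is a copy of Psme2 whose transcript is 99.4% identical over 794 aligned bases, so most reads of the pair cannot be told apart. Of the 47 rows, 45 passed the filter on low values (2 or more libraries exceeding the table's lowest value by 1 log2 unit or more). Psma8, a core subunit of the testis, had no read in any library, and Psmb11, a subunit of the thymus, had 14.1 normalised reads in siScr_Ctrl replicate 3, 0.981 in siScr_LPS replicate 3 and 0 elsewhere.

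The libraries held 8739716 to 23030426 reads on genes (median 18844761), so counting error weighs most on the lowest genes. Replicate 3 of siScr_Ctrl, with 8764031 reads, stood apart with 16406 genes detected against 12866 to 14180 in the others, and its deviations from the group mean followed GC content (r = 0.46 across all genes tested, a description). The other siScr_Ctrl libraries had the opposite sign (r = -0.41 and -0.29 for replicates 1 and 2), and siScr_LPS replicate 1 had r = 0.32. Deviations from a group mean cancel out within the group, so the signs of its libraries are not independent observations. Tet2 had 1988, 2399 and 1827 normalised reads in siScr_Ctrl, 1453, 1988 and 1662 in siTet2_Ctrl, 10405, 16792 and 14762 in siScr_LPS and 7969 and 9238 in siTet2_LPS. Tet2 was therefore -0.28 (log2, adjusted p = 0.566) in untreated and -0.67 (adjusted p = 0.165) in LPS-treated Tet2 siRNA cells, and neither difference passed the test. All 8 microglia and macrophage markers were expressed, with a summed level of 56022 to 79063 normalised reads in siScr_Ctrl, 59825 to 70424 in siScr_LPS, 33189 to 49098 in siTet2_Ctrl and 36155 to 47563 in siTet2_LPS. Neuronal, astrocytic and endothelial markers summed to at most 24.6 normalised reads in any library, and oligodendrocytic ones to 38.4 to 68.5 with Mog at 0.

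Resting levels were compared per kilobase of transcript, the mean of the 3 siScr_Ctrl libraries in normalised reads per kb. Psmb6, the beta subunit with caspase-like activity, stood highest at 5857 ± 659 (SD, n = 3), followed by Psma7 at 4415 ± 186, Psmb7 at 4082 ± 1114 and the cap subunit Psmd8 at 3815 ± 580.1. The library range of Psmb6 lay above that of Psma7, whereas Psmb7 ran from 2803 to 4840.1 and overlapped both Psma7 and Psmd8. The 6 ATPases, which occupy one ring in equal number, lay between 701 for Psmc4 and 1311 for Psmc3, and the library ranges of these extremes did not overlap. Rings of equal stoichiometry were read at unequal RNA levels: alpha ring genes went from 231 for Psma3 to the value of Psma7, and beta ring genes from 299 for Psmb3 to that of Psmb6. Transcript length was taken from GENCODE M21, one model per gene, and a gene whose main isoform differs from it will be misplaced.

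At the low end were genes outside the constitutive particle. Psmc3ip stood at 91.1 ± 32.6 reads per kb, and Psmb10, the alternative beta subunit that replaces Psmb7, at 152 ± 66.6. The assembly chaperones Psmd9, Psmg3 and Psmd5 followed at 170.3, 171 and 216. The library ranges of Psmb10, Psmd9 and Psmg3 overlapped, so their order is not resolved.

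**Figure D1:**
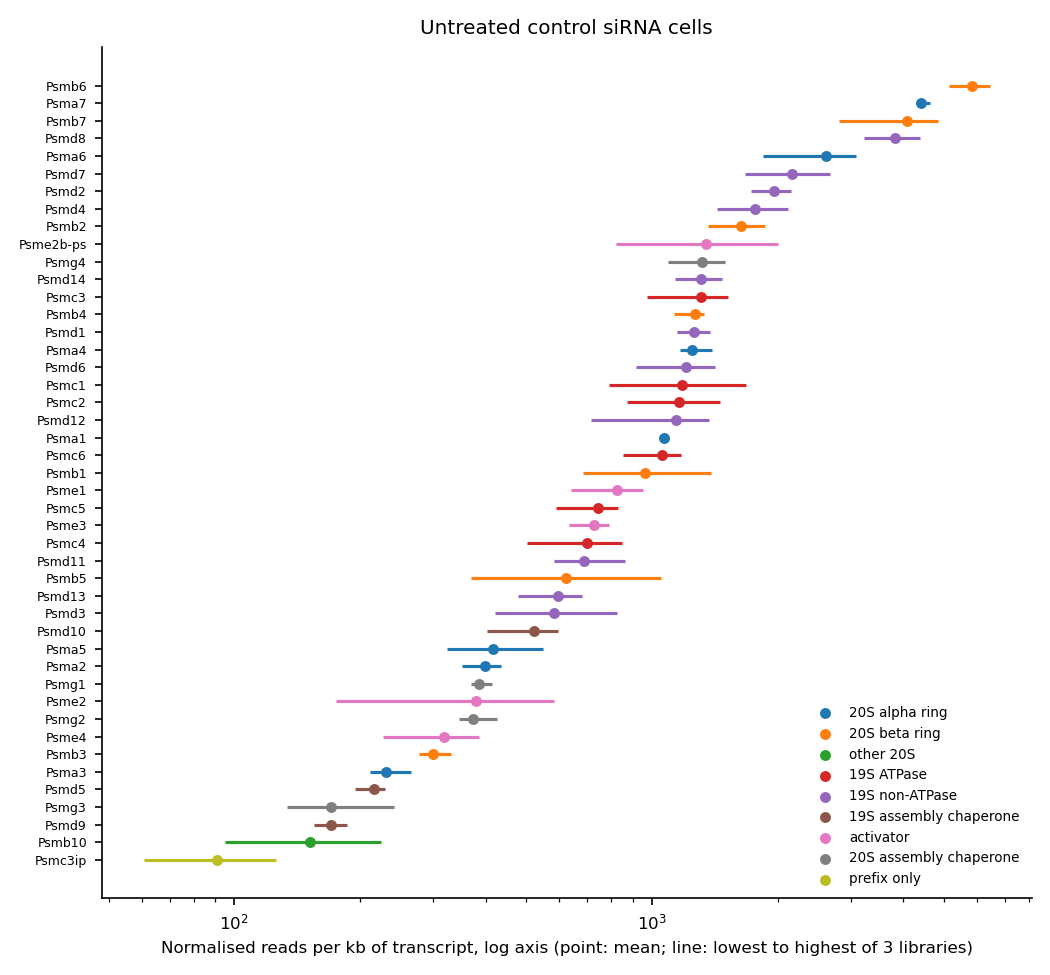
Level of the 45 proteasome genes past the filter in untreated control siRNA cells, in normalised reads per kb of transcript on a log axis. Points are means and lines run from the lowest to the highest of 3 libraries; Psmb6 stands highest and Psmc3ip lowest, and ring members of equal stoichiometry spread widely.

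LPS raised part of the family in control siRNA cells. Of the 45 genes, 13 (28.9%) were higher at an adjusted p under 0.05 (limma, Benjamini-Hochberg over all 12486 genes tested), where 13.2% of all genes tested were called higher. None was lower, where 10.4% of all genes were called lower. Psme2 and its copy Psme2b-ps entered these counts as separate rows, and Psmc3ip was counted too. Leaving out Psme2b-ps and Psmc3ip, 12 of 43 genes (27.9%) were called higher and 0 lower. Of the 45, only Psmd9 was lower at an unadjusted p under 0.05. Voom on the recovered reads also called 13 higher and 0 lower (13.5% and 10.1% of all genes). The median difference over the 45 genes was 0.35 on the log2 scale against -0.02 over all genes tested. Of the 45 estimates, 38 were above 0 (48.0% of all genes). Libraries of the groups did not overlap, LPS above, for 24 of 45 genes (19.2% of all genes), and LPS below for 2, Psmd9 and Psmg2 (18.3% of all genes).

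The calls were of unequal firmness. Without siScr_Ctrl replicate 3 and siScr_LPS replicate 1, 7 of the 13 calls remained (15.6% of members, where 12.8% of all genes were called higher in that fit, so the share was then close to that of all genes): Psmd10, Psme2b-ps, Psmd11, Psme2, Psmd5, Psme1 and Psmb10, which were also called under each of the 22 alternatives run. The other 6, Psma5, Psmd8, Psmd14, Psma6, Psmb6 and Psmd1, had smaller differences and each lost its call under 6 to 10 alternatives. With the trend on GC content and length removed from each library, 11 genes were called higher and 2 lower (24.4% and 4.44%, where 12.8% of all genes were called higher and 14.8% lower). Quantile normalisation left 8 higher (17.8%, against 10.7% of all genes) and a median of 0.13.

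**Figure D2:**
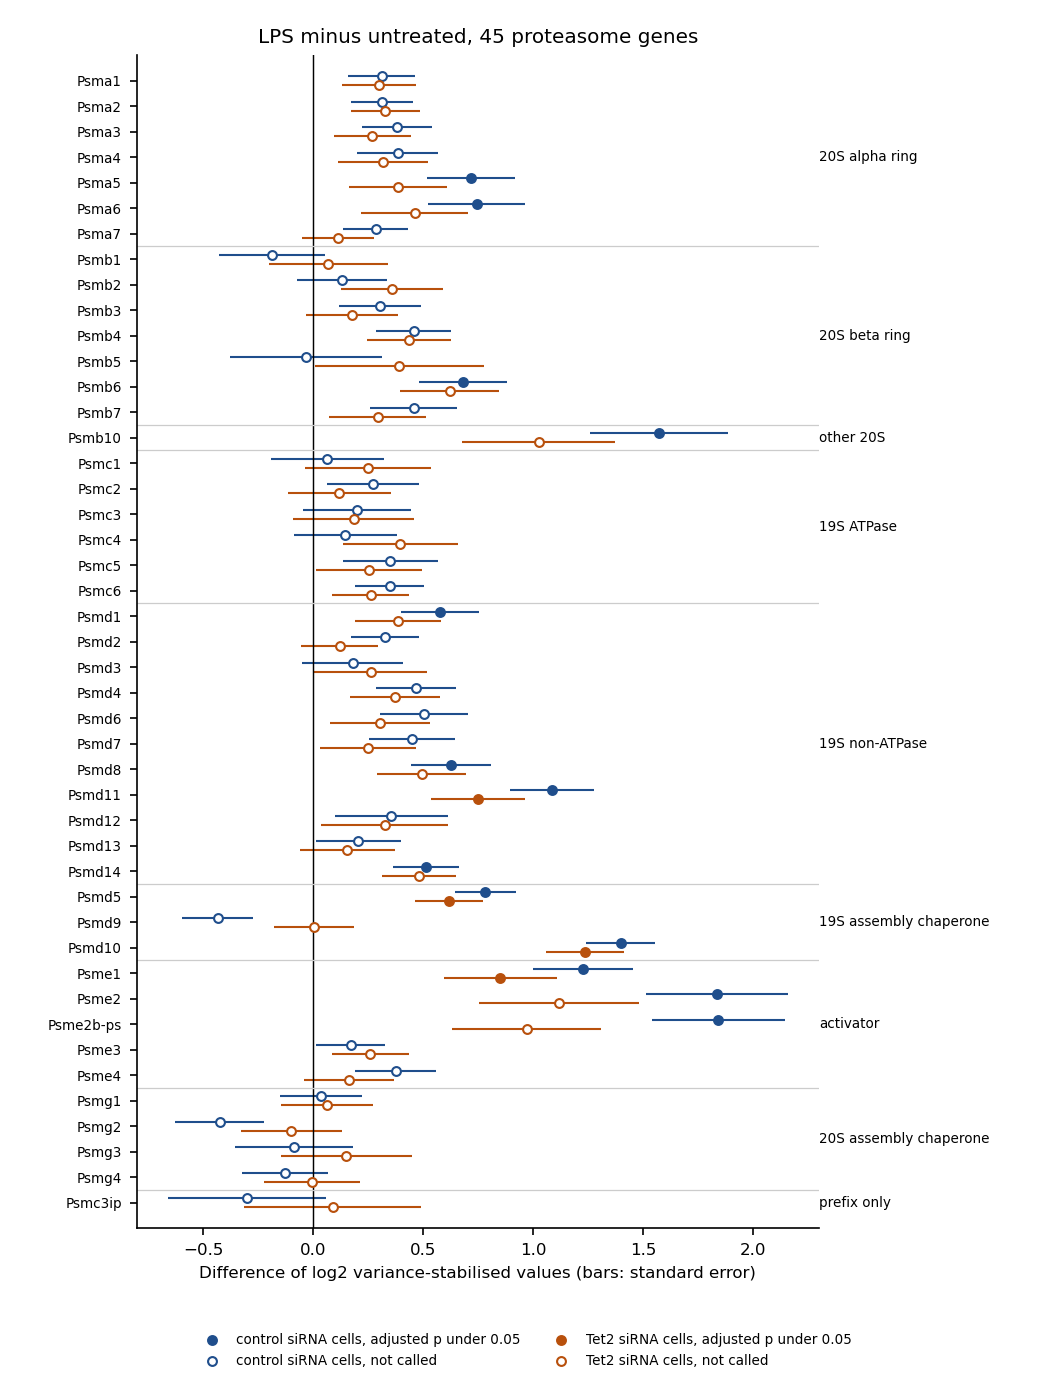
Difference between LPS-treated and untreated cells for 45 proteasome genes, on the deposited log2 scale, by role; bars are standard errors of the fit over 11 libraries and filled points have an adjusted p under 0.05. In control siRNA cells 13 genes are filled, led by Psme2b-ps and Psme2 at 1.84, and in Tet2 siRNA cells 4.

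Among the cap assembly chaperones, Psmd10 (gankyrin), which binds an ATPase subunit while the cap is built, gave the smallest adjusted p of the family. It had 852, 816 and 576 normalised reads in the 3 untreated libraries and 2159.6, 1926 and 1913 in the 3 LPS-treated ones. Every treated library was above every untreated one, a difference of 1.40 on the log2 scale (SE 0.16, adjusted p = 2.85e-05). Psmd5, another chaperone of the ATPase ring, went from 1009.7, 983 and 857 to 1594, 1616 and 1755, again without overlap (0.78, SE 0.14, adjusted p = 0.00104). The remaining chaperone of the ring, Psmd9, had the opposite sign. Its values were 403, 485 and 439 untreated and 269.9, 345 and 346 after LPS, a difference of -0.43 that missed the threshold (adjusted p = 0.071), with all treated libraries below all untreated ones. Psmd9 was called lower with the replicate number as a block (adjusted p = 0.0403) and with the GC and length trend removed (adjusted p = 0.0494). A noncoding gene on the opposite strand shares 25.5% of its exonic bases in GENCODE M21. Whether the counting used strand is not given in the sources used here, so reads of overlapping genes cannot be told apart. The same holds, over smaller shares, for Psmb7, Psmc3, Psmd13, Psma5, Psma4, Psmd1, Psmd3, Psme1 and Psmc3ip. Psmb5, Psmg3, Psme2b-ps and Psmd1 share 12.1%, 9.68%, 4.90% and 4.14% of their exonic bases with a gene on the same strand, which counting by strand does not separate.

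The activators held the largest differences. Psme1, which forms the interferon-inducible cap together with Psme2, had 712, 989 and 1059 normalised reads untreated and 2644, 2537 and 1514 after LPS (1.23, SE 0.23, adjusted p = 0.00156). Psme2 went from 559.7, 369 and 169 to 1584, 1226 and 1027 (1.84, SE 0.32, adjusted p = 0.00104), and its copy Psme2b-ps from 1682, 1022 and 685 to 5735, 3671 and 2762 (1.84, adjusted p = 0.000611). For all of these the groups did not overlap, although the spread within each group was wide. Since the copies share most of their sequence, the sum is the safer quantity: it was 2242, 1391 and 854 untreated and 7319, 4897 and 3789 after LPS. The copy took 76.3% ± 3.54 (SD, n = 3) of the sum before and 75.4% ± 2.76 after. These shares did not differ beyond the spread (exact permutation test, 2-sided p = 0.6, adjusted 0.686 over 24 tests of ratios). Most reads of the pair cannot be told apart, so the shares cannot decide whether the copies responded alike.

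The other caps were not called. Psme3, the nuclear relative of Psme1, had 1689, 2030.3 and 2103 untreated and 1942, 2218 and 2398 treated (0.17, 95% interval -0.17 to 0.51, adjusted p = 0.488), with overlapping groups. Psme4, a large single-chain activator, had 2509, 2222 and 1474 and 2529.6, 2832 and 2537 (0.38, interval -0.02 to 0.77, adjusted p = 0.167), and its groups all but met. Per kilobase, Psme1 stood at 1.13 ± 0.104 times Psme3 untreated and at 2.50 ± 0.898 times after LPS (SD, n = 3 each; exact p = 0.1, the smallest that 3 against 3 libraries allow, adjusted 0.282).

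Psmb10 had the largest difference among the beta subunits of the list, which leaves out Psmb8 and Psmb9. It had 125, 177 and 295 normalised reads untreated and 962, 641 and 385 after LPS (1.57, SE 0.31, adjusted p = 0.0024), and both untreated replicate 3 and treated replicate 3 lay towards the other group without reaching it. Psmb7, the trypsin-like subunit that Psmb10 replaces, had 5341, 5615 and 3252 and 5499, 6801 and 6785 (0.46, adjusted p = 0.116) with overlapping groups. The ratio of Psmb10 to Psmb7 per kilobase was 0.0207, 0.0280 and 0.0803 untreated and 0.155, 0.0834 and 0.0503 treated, so that the alternative subunit stayed well under its counterpart in each library, and the groups overlapped (exact p = 0.2, adjusted 0.282). The 2 alternative subunits outside the list can be set beside it. Psmb8 was 1.31 higher (adjusted p = 0.00206) and Psmb9 2.03 higher (adjusted p = 6.28e-05). Psmb8 ran at 1.47 ± 0.585 times its counterpart Psmb5 untreated and 3.58 ± 0.853 times after LPS, whereas Psmb9 ran at 0.00899 and 0.0299 times Psmb6. Each of these ratios gave an exact permutation p = 0.1, the smallest that 3 against 3 libraries allow (adjusted 0.282). The untreated Psmb8 ratio was 0.793 in replicate 3 against 1.86 and 1.75 in replicates 1 and 2.

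Within the constitutive beta ring Psmb6 was called, 1 of 7 genes (14.3%, against 13.2% of all genes), a count too small to read against that share. It had 4776, 4105 and 5142 normalised reads untreated and 9684, 6617 and 6522 treated (0.68, SE 0.20, adjusted p = 0.026). Psmb5, the chymotrypsin-like subunit and the target of proteasome inhibitor drugs, had 405, 332 and 947 and 815, 352 and 416. Untreated replicate 3 was the highest of all its libraries, and the difference of -0.03 came with an interval from -0.78 to 0.71, which leaves room for a change in either direction. Without that library the difference was 0.40 (adjusted p = 0.361). The remaining beta genes ranged from -0.19 for Psmb1 to 0.46 for Psmb4 and Psmb7.

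All 7 alpha ring estimates were above 0, from 0.28 for Psma7 to 0.74 for Psma6. Of these, 2 were called (28.6%, against 13.2% of all genes), a count too small to read against that share. Psma5 went from 681, 469 and 401 to 1017, 828 and 731 (0.72, adjusted p = 0.019). Psma6 went from 3019, 3217 and 1927 to 4001, 4654 and 4792 (0.74, adjusted p = 0.0258). In both, untreated replicate 3 was the lowest library.

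None of the 6 ATPases was called by limma or by voom, and 1, Psmc6, had an unadjusted p under 0.05. Limma called 13.2% of all genes higher, so 6 genes are too few to read against that share. The differences of the ATPases ran from 0.06 for Psmc1 to 0.35 for Psmc5 and Psmc6, with a median of 0.24. The non-ATPase subunits of the same cap were, like the ATPases, all above 0 (median 0.47). Of these 11 subunits, 4 were called (36.4%, against 13.2% of all genes), again a count too small to read against that share. Psmd11, the subunit that clamps the cap to the core, stood out: 1779.9, 1663 and 2451 normalised reads untreated and 5358, 3857 and 3462 treated (1.09, SE 0.19, adjusted p = 0.00103). Each treated library was above each untreated one. Psmd8, a subunit of the lid of the cap, went from 6630.0, 5796 and 4877 to 8439, 9939.6 and 8265 (0.63, adjusted p = 0.0236). Psmd14, the deubiquitinase of the cap, went from 2064, 2263 and 1746 to 2846, 2981 and 2839 (0.51, adjusted p = 0.0256). Psmd1, a scaffold subunit, went from 3577, 4287 and 3909 to 6108, 6013 and 5464 (0.58, adjusted p = 0.0299). These 4 had no overlap between groups. Of the 4, Psmd8, Psmd14 and Psmd1 lost their calls under 7, 9 and 10 of the 22 alternatives. The ubiquitin receptor Psmd4 missed the threshold at 0.47 (adjusted p = 0.0831), and Psmd3 had the smallest estimate of its class at 0.18.

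The core assembly chaperones gave no call by limma or voom, and 0 of 4 had an unadjusted p under 0.05. Limma called 13.2% of all genes higher and 10.4% lower, so 4 genes are too few to read against those shares. Psmg2, which pairs with Psmg1 on the alpha ring, had 371, 365 and 449.7 untreated and 232, 279 and 357 treated (-0.43, adjusted p = 0.16). Its groups did not overlap, and it is the other gene, besides Psmd9, called lower once the GC and length trend was removed. Psmg1, Psmg3 and Psmg4 lay between -0.13 and 0.04. Psmc3ip, the row outside the complex, had 78.4, 162 and 112 and 64.1, 94.7 and 106 (-0.30, adjusted p = 0.604).

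**Figure D3:**
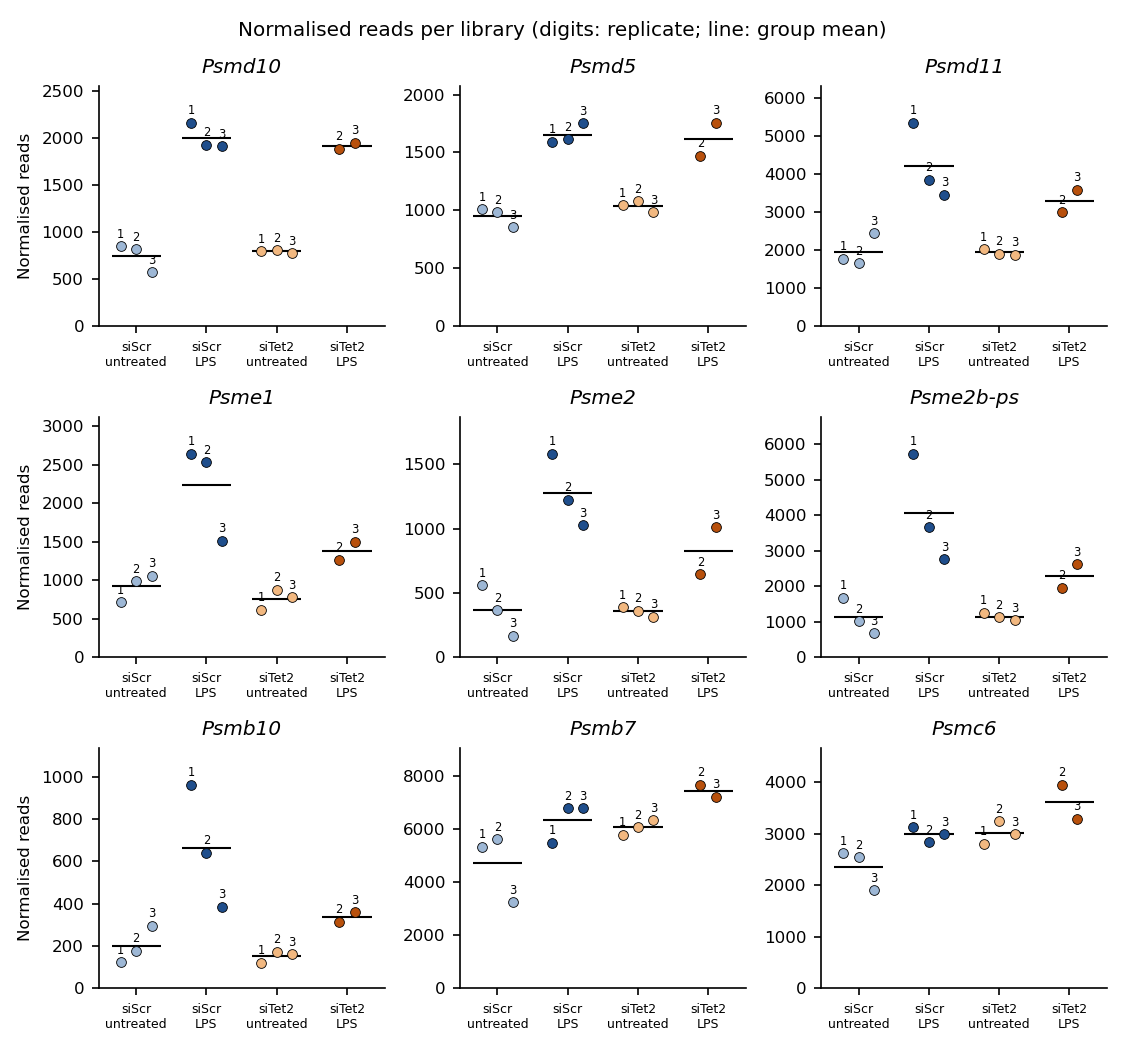
Normalised reads of 9 proteasome genes in each library on linear axes from 0, with digits for the replicate and a line for the group mean. Psmd10 separates treated from untreated libraries in both siRNA conditions, whereas in control siRNA cells the groups overlap for Psmb7 and lie close together for Psmc6. Untreated control replicate 3 stands away from its group for Psmb7, Psmc6 and Psmb10, and is the lowest of its group for Psme2.

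Because several members rose together, the 250 bases upstream of their start sites were searched for letters of motifs. These were motifs that factors of the LPS and stress responses are known to bind, and the CCAAT box, a common promoter motif. RefSeq promoters of GRCm38.p6, another build than the mm9 of the submitters' processing notes, matched 39 of the 47 genes, all 13 called genes among them. Both strands were searched, and shares refer to 32544 distinct promoters of the same length. The interferon-stimulated letters, GAAA and again GAAA with any 2 bases between, were in 2.98% of all promoters, in Psmb3, Psmd4 and Psmd9, and in 0 of 13 called genes. The gamma-activated letters TTCNNNGAA were in 7.04%, and in Psmg1 only of these genes. The NF-kB letters, GGGA and TTTCC with any base between, were in 0.36% of all and in none of the 39. The antioxidant-response letters TGACNNNGC, which the proteasome regulators Nfe2l1 and Nfe2l2 are known to bind, were in 10.2% of all promoters and in 5 members, Psmb5, Psmb6, Psmc6, Psmd12 and Psmd9, of which 1 was called. The CCAAT box was in 33.8% of all and in 14 members, 3 of them called. Shown are the promoters of 3 genes called in both LPS comparisons, Psmd10, Psmd11 and Psme1, and of Psmb6, the called gene with the antioxidant-response letters; capitals mark CCAAT or its reverse complement ATTGG in Psmd10 and the antioxidant-response letters in Psmb6, which end at the base before the start site. Psmd10 lies at chrX:140956712-140956961 on the minus strand, Psmd11 at chr11:80428365-80428614, Psme1 at chr14:55578244-55578493 and Psmb6 at chr11:70525107-70525356, all on the plus strand. Each is printed 5′ to 3′ along its gene.
Psmd10: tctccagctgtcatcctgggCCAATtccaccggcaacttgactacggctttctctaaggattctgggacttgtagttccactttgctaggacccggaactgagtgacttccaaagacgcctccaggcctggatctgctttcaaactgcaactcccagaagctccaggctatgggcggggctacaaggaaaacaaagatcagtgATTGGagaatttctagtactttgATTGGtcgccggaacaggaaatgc
Psmd11: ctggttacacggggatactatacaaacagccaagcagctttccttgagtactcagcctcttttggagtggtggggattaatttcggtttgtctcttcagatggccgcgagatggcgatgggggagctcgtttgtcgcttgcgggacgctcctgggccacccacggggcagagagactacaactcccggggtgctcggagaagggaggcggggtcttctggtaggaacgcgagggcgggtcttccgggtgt
Psme1: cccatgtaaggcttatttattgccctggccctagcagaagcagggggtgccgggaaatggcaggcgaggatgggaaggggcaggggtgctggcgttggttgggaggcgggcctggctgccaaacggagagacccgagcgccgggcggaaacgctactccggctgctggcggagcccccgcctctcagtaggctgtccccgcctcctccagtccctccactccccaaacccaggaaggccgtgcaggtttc
Psmb6: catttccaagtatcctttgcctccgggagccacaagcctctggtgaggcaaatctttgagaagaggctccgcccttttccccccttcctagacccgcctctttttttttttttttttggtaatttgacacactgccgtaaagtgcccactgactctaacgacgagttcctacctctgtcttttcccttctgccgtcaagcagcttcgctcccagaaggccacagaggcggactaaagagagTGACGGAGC
The windows of Psmd11 and Psme1 hold none of the 5 sets of letters, which says only that those letters are not in these bases. A match is a description of sequence and was not tested as a binding site.

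In Tet2 siRNA cells, which have 1 treated library fewer, LPS gave 4 calls. These were 8.89% of the 45 genes, where 7.14% of all genes tested were called higher, so in this fit the family's share was close to that of all genes. None was called lower (4.77% of all genes, and 0 members at an unadjusted p under 0.05). Voom likewise gave 4 higher and 0 lower (7.18% and 4.98% of all genes). The median difference was 0.30 against -0.00 over all genes, and 43 of 45 estimates were above 0 (49.8% of all genes). An unadjusted p under 0.05 was found for 11 of 45, a share close to that of all genes (2743 of 12486). LPS libraries lay wholly above untreated ones for 20 of 45 genes (21.9% of all genes) and below for 0 (21.3%). This group holds 2 treated libraries, and the count depended on single libraries. It fell to 1 without siTet2_Ctrl replicate 3 or without siTet2_LPS replicate 3 (2.22%, against 5.39% and 4.01% of all genes). It rose to 8 without siScr_Ctrl replicate 3 (17.8%, against 8.37% of all genes). Without siScr_Ctrl replicate 3 and siScr_LPS replicate 1 it was 9 (20% of members, against 9.83% of all genes), above the 7 called in control siRNA cells in that fit, so the order of the counts between the siRNAs turned. The median was 0.16 without siTet2_LPS replicate 2.

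The 4 called genes, Psmd10, Psmd5, Psmd11 and Psme1, were all called in control siRNA cells too. Psmd10 went from 800.2, 807 and 776 normalised reads to 1884 and 1949, with untreated libraries close together (1.24, SE 0.18, adjusted p = 0.000372), and it was called under all 22 alternatives. Psmd5 went from 1044, 1081 and 987 to 1472 and 1757 (0.62, adjusted p = 0.0182) and lost its call without siTet2_Ctrl replicate 3 or siTet2_LPS replicate 3. Psmd11 went from 2037, 1914 and 1886 to 3010.1 and 3598 (0.75, adjusted p = 0.0369). Psme1 went from 618, 878 and 778 to 1267 and 1502 (0.85, adjusted p = 0.0477). Psmd11 lost its call under 8 alternatives and Psme1 under 10, so these are the less secure of the 4.

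Psme2, Psmb10 and Psme2b-ps lay just past the threshold. Psme2 had 389, 364 and 317 untreated and 645 and 1013 treated (1.12, adjusted p = 0.067). Psmb10 had 121, 173 and 160.1 and 315 and 359 (1.03, adjusted p = 0.0821), and Psme2b-ps 1258, 1126 and 1052 and 1962 and 2629 (0.97, adjusted p = 0.0905). None of these overlapped between groups. Fitted on the 5 libraries of these groups alone, all 3 were called and the family count was 7 (15.6%, against 8.05% of all genes). The ATPases again gave no call (0 of 6 by limma or voom, where limma called 7.14% of all genes higher). Their differences ran from 0.12 to 0.40, with 0 at an unadjusted p under 0.05. Psmd9 and Psmg2 differed by 0.00 and -0.10.

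Whether LPS acted differently under Tet2 siRNA was tested on the difference between the responses, in which a negative value is a smaller LPS difference under Tet2 siRNA. No member was called in either direction (0.0% of all genes both ways; limma and voom), none had an unadjusted p under 0.05, and the smallest adjusted p was 1.0. The median over the 45 genes was -0.09 against -0.00 over all genes, and it became 0.05 without siTet2_Ctrl replicate 2, 0.04 without siTet2_LPS replicate 3 and 0.00 with quantile normalisation. The activators gave the most negative estimates: -0.87 for Psme2b-ps (95% interval -1.85 to 0.11) and -0.72 for Psme2 (-1.77 to 0.33), with Psmb10 at -0.55 (-1.56 to 0.47) and Psme1 at -0.38 (-1.12 to 0.37). Psmd9 gave the largest positive one, 0.44 (-0.09 to 0.96). These intervals all include 0 and are wide, so neither equal nor unequal responses are shown. For Psmd10 the interval was narrower, -0.68 to 0.36 around -0.16.

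Tet2 siRNA itself called no member in untreated cells. Of 45 genes 0 were higher (0.0% of all genes tested) and 0 lower (0.00801%, which is 1 gene), by limma and by voom. An unadjusted p under 0.05 was found for 3 of the 45 members and for 1354 of the 12486 genes tested, a larger share. The 3 members were Psma6, Psmc6 and Psmd4. Psma6 had 3019, 3217 and 1927 in siScr_Ctrl and 3035, 5109 and 3803 in siTet2_Ctrl (0.55, adjusted p = 0.426), with overlapping groups. Psmc6, a cap ATPase, had 2630.2, 2551 and 1908 and 2811, 3244 and 2989, all of the latter above all of the former (0.36, adjusted p = 0.445). Psmd4 had 2340.4, 2817 and 1904 and 2668, 3782 and 2876 (0.40, adjusted p = 0.459). In each of these, siScr_Ctrl replicate 3 was the lowest library and siTet2_Ctrl replicate 2 the highest.

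Over the family the untreated median was 0.11 against -0.03 for all genes, and it was 0.06 without siTet2_Ctrl replicate 2. Groups did not overlap for 4 genes, Psma7, Psmb7, Psmc6 and Psmg1, all higher under Tet2 siRNA (7.82% of all genes), and for 0 in the other direction (9.82%). The most negative estimates were those of Psmb5 (-0.51) and Psmb1 (-0.41), in both of which siScr_Ctrl replicate 3 was the highest library of the 2 groups, and Psmb5 stood at -0.08 without it. The summed microglia and macrophage markers were lower in both Tet2 siRNA groups, without overlap, and the part of that in these differences was not tested. Less RNA per cell and fewer cells of a kind cannot be told apart in bulk libraries.

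After LPS, 0 members were called in either direction (0.0% of all genes both ways, by limma and by voom). An unadjusted p under 0.05 was found for 5 of the 45 members and for 2131 of the 12486 genes tested, a larger share. Of the 5 members, Psme1, Psmb10 and Psme2b-ps were estimated lower under Tet2 siRNA. Psme1 had 2644, 2537 and 1514 in siScr_LPS and 1267 and 1502 in siTet2_LPS (-0.64, SE 0.26, adjusted p = 0.236). Psmb10 had 962, 641 and 385 and 315 and 359 (-0.83, SE 0.35, adjusted p = 0.253), and Psme2b-ps 5735, 3671 and 2762 and 1962 and 2629 (-0.76, adjusted p = 0.276). With Psme2 (1584, 1226 and 1027 against 645 and 1013; -0.62, adjusted p = 0.406), these are the 4 members whose Tet2 siRNA libraries lay wholly below, where 21.0% of all genes did. In all 4 the gap to siScr_LPS replicate 3 was narrow. The alternative subunits outside the list had the same sign, Psmb8 at -0.97 (adjusted p = 0.136) and Psmb9 at -1.14 (adjusted p = 0.122). Per kilobase, Psme1 stood at 0.770 ± 0.0564 times Psme3 in siTet2_Ctrl (SD, n = 3) and at 0.992 and 1.40 times in the siTet2_LPS libraries, below the control siRNA values without overlap in both conditions (exact p = 0.1 untreated and 0.2 after LPS, the smallest these designs allow, adjusted 0.282). The ratio of Psmb10 to Psmb7 was 0.0363 and 0.0439 in siTet2_LPS, and that of Psmb8 to Psmb5 1.59 and 2.25, all below the siScr_LPS libraries (exact p = 0.2 each, adjusted 0.282).

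The other 2 genes were estimated higher: Psmg2 (232, 279 and 357 against 461 and 392; 0.53, adjusted p = 0.264) and Psmc3ip (64.1, 94.7 and 106 against 287 and 139.7; 0.99, adjusted p = 0.242). In all, 11 members lay wholly above after LPS (17.9% of all genes). The constitutive rings and cap had estimates between -0.36 for Psmb6 and 0.44 for Psmd12, on both sides of 0, and Psmd10 stood at -0.06 (interval -0.44 to 0.33). The family median was 0.07 against -0.02 over all genes, and it moved to 0.20 without siTet2_LPS replicate 3 and to -0.01 without replicate 2. These comparisons share libraries with the LPS comparisons above: the untreated or treated groups enter both, so they are not independent readings.

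**Figure D4:**
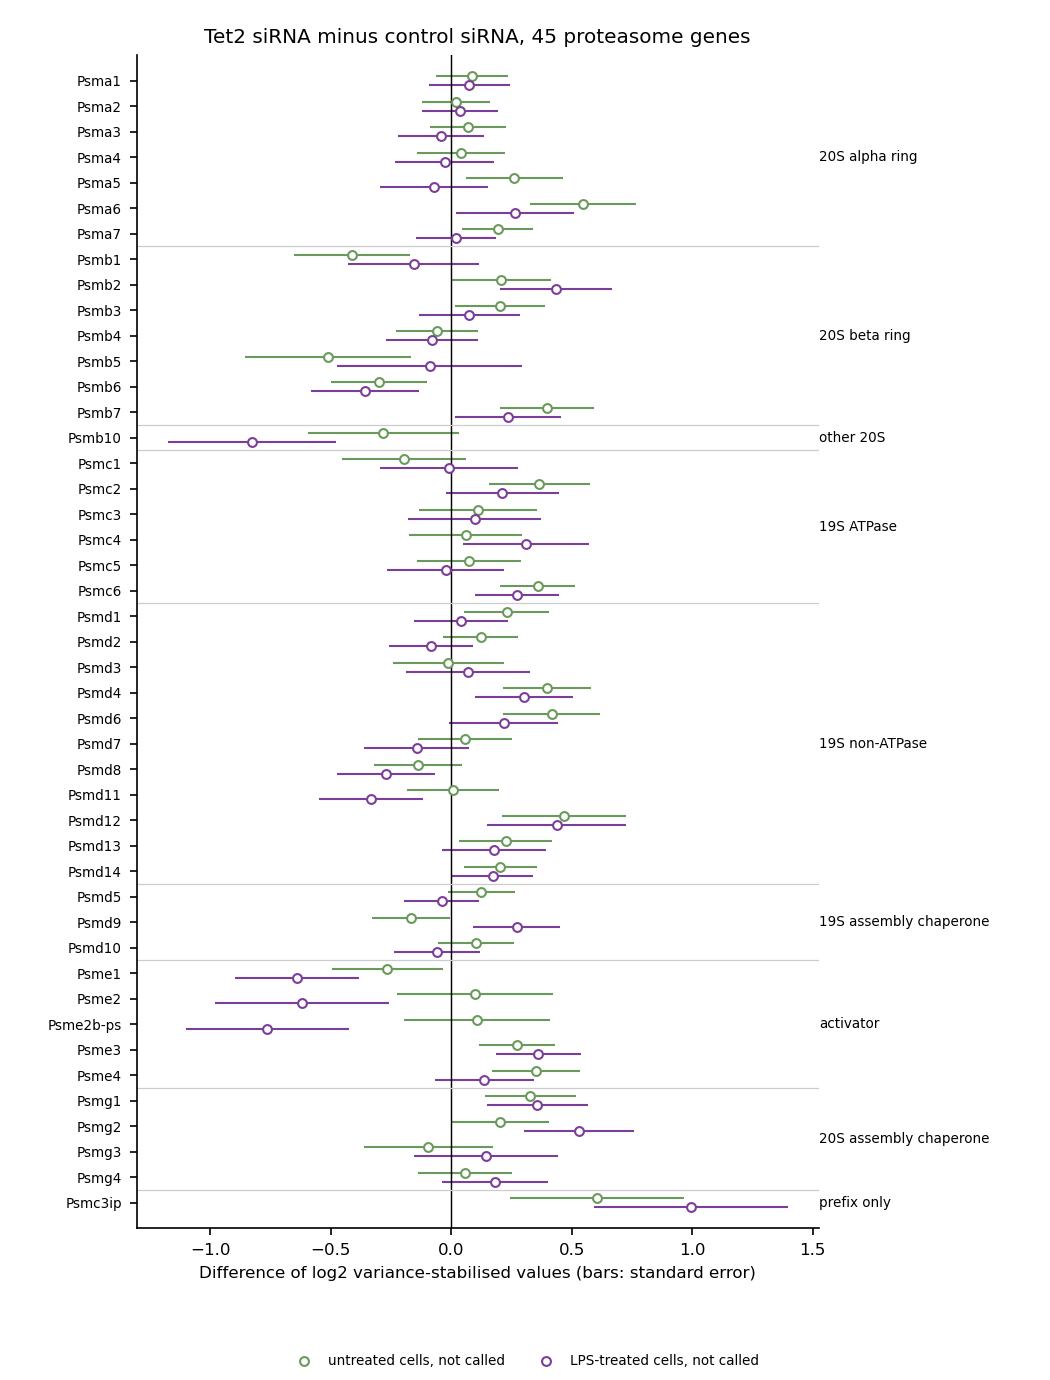
Difference between Tet2 siRNA and control siRNA cells for 45 proteasome genes in untreated and in LPS-treated cells, on the deposited log2 scale, by role; bars are standard errors of the fit over 11 libraries. No gene has an adjusted p under 0.05, and after LPS the most negative estimates are those of Psmb10, Psme2b-ps, Psme1 and Psme2.

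Members also moved together from library to library within a group. Replicate 2 of siTet2_Ctrl, the shallowest library, was the highest of its group for 36 of 45 members (80.0%) against 41.4% of all genes, among them all 7 alpha ring genes and all 6 ATPases. Replicate 2 of siTet2_LPS was above replicate 3 for 33 of 45 (73.3% against 48.4% of all genes), again with all alpha ring genes and all ATPases. Replicate 1 of siScr_LPS was the highest of its group for 28 of 45 (62.2% against 39.4%). Psmc3, for example, had 1775, 3056 and 2172 normalised reads in siTet2_Ctrl and 3326 and 2015 in siTet2_LPS, so that its libraries differed more within each group than the group means did. In the beta ring siTet2_Ctrl replicate 2 was the highest for 3 of 7 genes, and for Psmb6 and the cap subunit Psmd8 it was the lowest. The spread within groups was no wider than elsewhere, with a median pooled SD of 0.253 on the log2 scale for members and for all genes alike. These are descriptions of libraries, and what sets the shared shifts was not tested.

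**Figure D5:**
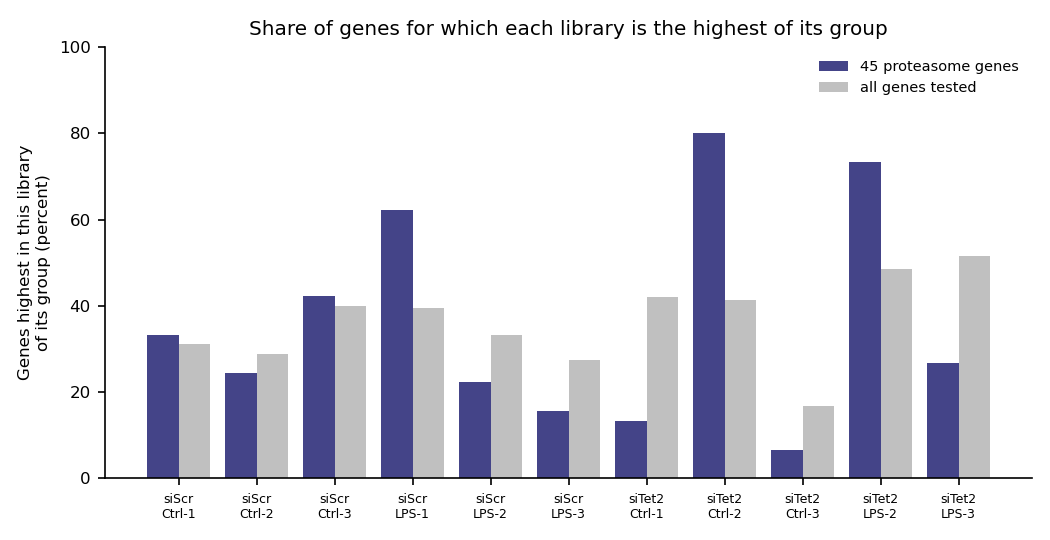
Percent of genes for which each library is the highest of its group, for 45 proteasome genes and for all 12486 genes tested; siTet2_LPS has 2 libraries and the other groups 3. Replicate 2 of siTet2_Ctrl is the highest for 80.0% of proteasome genes and for 41.4% of all genes.

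Genes that work with the proteasome were counted from lists chosen by function. Of 24 regulators and partners tested, 6 were higher and 1 was lower after LPS in control siRNA cells (25.0% higher, against 13.2% of all genes, and 10.4% lower over all genes). In Tet2 siRNA cells 2 were higher and 1 lower (8.33% higher, close to the 7.14% of all genes, with 4.77% of all genes lower). Zfand5, which binds the cap and activates it, rose by 1.39 (adjusted p = 1.01e-05) in control and 0.97 (adjusted p = 0.000905) in Tet2 siRNA cells. Nfe2l2, a factor of the antioxidant response that also drives proteasome genes, had 7609, 8236 and 5237 normalised reads untreated and 14484, 22937 and 24799.6 treated (1.55, adjusted p = 0.000316). Its relative Nfe2l1, the factor of the bounce-back response to proteasome inhibition, was 0.52 (adjusted p = 0.0449), a call lost under 15 of 22 alternatives. Ddi2, the protease that activates Nfe2l1, fell by 1.44 on the log2 scale (adjusted p = 3.61e-05), from 4166, 3491 and 3866 to 1729.9, 1131 and 1382, and by 1.03 in Tet2 siRNA cells (adjusted p = 0.00223). The core assembly factor Pomp was 0.34 (adjusted p = 0.253) and not called.

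Of 7 ubiquitin and ubiquitin-activating enzyme genes tested, 2 were higher in control (28.6%, against 13.2% of all genes) and 1 in Tet2 siRNA cells (14.3%, against 7.14%), numbers too small to read against those shares. Uba7, the activating enzyme of the ubiquitin-like protein Isg15, was 3.28 higher in control cells (adjusted p = 3.22e-06) and 2.17 in Tet2 siRNA cells (adjusted p = 0.000514). Uba6 was 0.93 higher in control cells (adjusted p = 0.00236), whereas the main ubiquitin-activating enzyme Uba1 was 0.13 (adjusted p = 0.644). Of 12 class I antigen processing genes, 8 were higher in control (66.7%, against 13.2% of all genes) and 6 in Tet2 siRNA cells (50.0%, against 7.14%), with medians of 1.52 and 0.74. Tap1, the peptide transporter that takes proteasome products to the endoplasmic reticulum, was 3.89 higher (adjusted p = 3.22e-06) in control cells. Between the siRNAs limma and voom called 0 of the 12, with medians of -0.27 in untreated and -0.85 in LPS-treated cells under Tet2 siRNA. An unadjusted p under 0.05 was found for 3 of them in untreated and 7 in LPS-treated cells (1354 and 2131 of the 12486 genes tested). The partners and the ubiquitin genes likewise had 0 calls, with 0 and 0 genes at an unadjusted p under 0.05 untreated and 2 and 2 after LPS. Leaving out siScr_LPS replicate 3 ended this for Tap1, Tap2, Nlrc5, Psmb9 and Uba7, which were then called lower under Tet2 siRNA after LPS, and for no proteasome gene of the list.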

How the data were processed

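RNA of BV2 cells was read as directional polyadenylated RNA libraries, and 11 libraries in 4 groups were used. The authors deposited 1 table of 26061 genes with variance-stabilised values on a log2 scale. The submitters' processing notes name Trim Galore 0.3.3, TopHat2 2.0.9, DESeq2 and the mm9 build. The version of DESeq2, the read counter, the annotation and strand use are not stated (not given in the sources used here). The table shares one lowest value, 4.02, which corresponds to 0 reads. Turned back from the log2 scale, 100% of the values were whole reads times one factor per library, within 0.01 read, and these give the depths and the normalised reads. Variance-stabilised differences understate fold changes of low genes.

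Differences were fitted with limma 3.58.1 in R 4.3.3, with a variance trend, on the deposited log2 values in one model of 4 group means, over the 12486 genes with 2 or more libraries exceeding that lowest value by 1 log2 unit or more. P-values were 2-sided and adjusted over all genes tested by Benjamini-Hochberg, with a threshold of 0.05. Ratios used exact permutation tests over libraries. Alternatives were no filter, a stricter filter, quantile normalisation, median centring, no variance trend, voom on the recovered reads with TMM sizes, a replicate block, a fit on only the groups compared, and each library left out in turn. Removal of a GC and length trend, and the 2 fits without 2 libraries each, were chosen after seeing the data. The script was tested on simulated data.

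Members were taken by symbol and grouped by role. Library values are printed for Psme1, Psme2, Psmb10, Psme3, Psme4, Psmb5, Psmb6, Psmb7 and Psmc3ip, for up to 10 called genes with the smallest p per comparison and direction (the 3 with the smallest p where fewer than 3 were called), and beside them for Tet2, Nfe2l2 and Ddi2. Psmb8, Psmb9 and the other named genes of the lists are given as differences or ratios. Psmd9, Psmg2, Psmd4, Psmc3 and the lower-ranked called genes were named after their values were seen. The members, roles and lists were chosen with earlier results of these data known. Transcript lengths, GC content and overlaps came from GENCODE M21 and promoters from RefSeq GRCm38.p6, a build other than mm9, so coordinates are given only for those promoters. Names of 24858 genes (95.4%) matched, 2067 of them through a synonym. The siTet2_LPS replicate 1 was not analysed here.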

Additional observations from a re-analysis of the deposited data

How the results depend on the processing

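In control siRNA cells after LPS, the count of higher genes was 13 (28.9%, against 13.2% of all genes). The count became 8 with no filter (17.0% of 47 rows, against 4.93%) and 8 with quantile normalisation (17.8%, against 10.7%, median 0.13). Without siScr_Ctrl replicate 3 and siScr_LPS replicate 1 it was 7 (15.6%, against 12.8%). It ran from 9 to 13 when single libraries were left out. The count of lower genes was 0, where 10.4% of all genes were lower. It became 1 with the replicate block (2.22%, against 12.0%) and 2 with the GC and length trend removed (4.44%, against 14.8%). In Tet2 siRNA cells after LPS, the count of higher genes was 4 and became 2 with no filter, 2 with quantile normalisation, 7 with only the groups compared, 9 without siScr_Ctrl replicate 3 and siScr_LPS replicate 1, and 7 without siScr_Ctrl replicate 3 and siTet2_Ctrl replicate 2. Leaving out single libraries gave 1 (2.22%, against 4.01% or 5.39%) to 8 (17.8%, against 8.37%), and medians of 0.16 to 0.41. The median was 0.17 with the GC and length trend removed. For Tet2 siRNA after LPS the median ran from -0.0135 to 0.20 when single libraries were left out. The median difference between the LPS responses ran from -0.19 to 0.053, and was 0.056 without siScr_Ctrl replicate 3 and siTet2_Ctrl replicate 2. The cause of these moves was not tested. The counts of 0 members for Tet2 siRNA, untreated and after LPS, and for the difference between responses stayed 0 in all alternatives run. Over all genes, the count for Tet2 siRNA after LPS was 0 higher and 0 lower, and became 19 higher and 101 lower without siScr_LPS replicate 3 and 12 higher and 1 lower with no filter. For Tet2 siRNA untreated it was 0 higher and 1 lower, and became 1 higher and 0 lower with no filter. For the difference between responses, no filter called 10 higher, and no proteasome gene was among these calls. For LPS in Tet2 siRNA cells, 891 genes were higher and 596 lower. Leaving out single libraries gave from 500 higher and 288 lower (without siTet2_LPS replicate 3) to 1037 and 734 (without siScr_Ctrl replicate 3). Leaving out both siScr_Ctrl replicate 3 and siScr_LPS replicate 1 raised the counts to 1214 and 930.

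With the replicate number as a block, 15 members were higher after LPS in control siRNA cells (33.3%, against 14.1% of all genes). In the same comparison 1 was lower (2.22%, against 12.0%). In Tet2 siRNA cells 6 were higher (13.3%, against 7.46%), and 0 were called in the other comparisons. The labels name no shared animal, batch or day, so the numbers were not taken as a pairing in the main fit. Deviations of same-numbered control siRNA libraries correlated at -0.13, 0.46 and -0.28 across genes. Those of Tet2 siRNA libraries correlated at 0.63 (replicate 2) and 0.24 (replicate 3). These correlations cannot decide whether the numbers mark a pairing, since the groups are small and the deviations of the 2 siTet2_LPS libraries are exact opposites of each other.

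With 2 or 3 libraries a group, exact tests cannot fall below 0.1 or 0.2. Depth differed more than 2-fold between libraries, and genes near the floor, such as Psmc3ip and Psmb9, carry the most counting error. The Tet2 siRNA comparisons rest on libraries in which Tet2 RNA itself did not differ past the threshold.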
